A study of Mus musculus with 2 samples.

Results

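Expression of 10 genes was followed across the cell types of the newborn mouse heart: 8 genes of the Hippo-YAP pathway (Yap1, Wwtr1, Tead1, Lats1, Lats2, Amotl1, Amotl2 and Vgll4) and the homeobox genes Meis1 and Meis2. They were chosen for their known roles in neonatal cardiomyocyte proliferation, and all 10 were among the 27999 features counted. The cells came from whole hearts of C57BL6+ICR mice at postnatal day 0 (P0), freed with trypsin and captured by droplet single-cell RNA sequencing from the 3' end of transcripts. Nothing was treated or mutated, so the comparisons are between cell types and between cycling and non-cycling cells of 1 group. That group was 1 biological sample with 2 technical replicates, so no test between samples was possible and no p-value is given. Instead, values of both technical replicates are given, with exact 95% intervals that cover counting error only.

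The Hippo pathway is a kinase cascade that restrains organ growth. The kinases encoded by Lats1 and Lats2 phosphorylate the coactivators YAP (Yap1) and TAZ (Wwtr1) and keep them in the cytoplasm. Unphosphorylated YAP and TAZ enter the nucleus and bind TEAD transcription factors such as that of Tead1, while the product of Vgll4 competes for TEAD and the angiomotins of Amotl1 and Amotl2 hold YAP at cell junctions. In the heart, active YAP promotes cardiomyocyte division before and shortly after birth, and the TALE homeobox factor MEIS1, the relative of MEIS2, has been linked to the end of that division.

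Of 11935 barcodes, 8601 had at least 500 detected genes and less than 0.5% of counts from globin genes (4596 and 4005 in technical replicates 1 and 2, with median counts of 5877.5 and 6074). Cells were assigned by summed marker counts: 5495 cardiomyocytes (1456 atrial and 3933 ventricular by their chamber markers), 1307 fibroblasts, 65 epicardial cells, 675 vascular endothelial cells, 243 endocardial cells, 270 pericytes, 224 smooth muscle cells and 141 macrophages. Cardiomyocyte markers averaged 249 counts per 10000 in cardiomyocytes and between 11.6 and 22.5 per 10000 in the other types, and the part of such stray transcripts in the values of those types was not tested. Mitochondrial transcripts took a median of 41.0% of counts in ventricular cardiomyocytes, 21.7% in atrial cardiomyocytes and 3.25% in fibroblasts. Levels are therefore given as CPM, counts per 1000000 of all counts, and again without mitochondrial and globin counts where this moved a result. Both libraries shared 53 barcode sequences, 31 of them after these limits.

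In the GRCm38 annotation the genes lie at chr9:7931999-8004596 on the minus strand (Yap1), chr3:57455649-57575910 on the minus strand (Wwtr1), chr7:112679318-112906807 on the plus strand (Tead1), chr10:7681214-7716460 on the plus strand (Lats1), chr14:57689662-57758388 on the minus strand (Lats2), chr9:14541966-14645056 on the minus strand (Amotl1), chr9:102716672-102733418 on the plus strand (Amotl2), chr6:114860628-114969994 on the minus strand (Vgll4), chr11:18879817-19018985 on the minus strand (Meis1) and chr2:115863064-116065839 on the minus strand (Meis2). Meis1 is overlapped by the counted antisense genes Gm16140 and Gm16141. Whether counting used strand is not given in the sources used here, so Meis1 values may hold their reads.

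TEAD factors bind the core motif CATTCC, so the promoters of the pathway genes were searched for it on both strands (GGAATG on the other). RefSeq promoter windows of GRCm38.p6, 250 bases before to 50 bases after a transcription start, were found for 9 of the 10 genes (11 windows). The motif was present in 6 of these 11 windows (54.5%), against 14.7% of all 32851 windows of the same length, and the 6 windows belonged to Yap1, Wwtr1, Vgll4, Amotl2 and Lats2. Both Wwtr1 windows overlap and hold the same site, so by gene it was 5 of 9 (55.6%), against 16.6% of 27025 genes. Of these genes, Yap1, Wwtr1, Vgll4 and Amotl2 were highest in endocardial cells among the compared types. Amotl1 and Meis2 were also highest there and held no TEAD motif in their windows. The 250 bases upstream of the start are shown for Yap1, Wwtr1 and Vgll4, whose stretches overlap no exon of the gene itself. Each is on the minus strand, runs 5′ to 3′ and has the motif in capitals, beginning at position -141 for Yap1, -136 for Wwtr1 and -82 for Vgll4 relative to the start. The Yap1 stretch covers chr9:8004597-8004846, touching an exon of the opposite-strand gene Gm45494. The Wwtr1 stretch, chr3:57575911-57576160, lies in no annotated gene, and the Vgll4 stretch, chr6:114969204-114969453, lies inside the Vgll4 gene and outside its annotated exons.
Yap1: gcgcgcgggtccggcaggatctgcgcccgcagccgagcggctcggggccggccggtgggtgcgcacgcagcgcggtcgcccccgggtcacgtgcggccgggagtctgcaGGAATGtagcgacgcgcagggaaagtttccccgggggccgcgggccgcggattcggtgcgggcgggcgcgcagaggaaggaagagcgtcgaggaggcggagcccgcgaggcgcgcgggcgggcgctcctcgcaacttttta
Wwtr1: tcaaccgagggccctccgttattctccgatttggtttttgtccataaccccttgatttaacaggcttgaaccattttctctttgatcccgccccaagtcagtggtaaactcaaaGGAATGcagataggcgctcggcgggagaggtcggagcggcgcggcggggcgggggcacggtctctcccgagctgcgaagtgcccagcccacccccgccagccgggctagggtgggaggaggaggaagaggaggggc
Vgll4: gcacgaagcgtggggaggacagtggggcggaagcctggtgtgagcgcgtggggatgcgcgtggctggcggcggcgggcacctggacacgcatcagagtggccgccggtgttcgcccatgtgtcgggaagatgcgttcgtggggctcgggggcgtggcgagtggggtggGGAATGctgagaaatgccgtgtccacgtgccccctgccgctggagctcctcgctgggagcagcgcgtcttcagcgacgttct

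Amotl2 and Lats2 are themselves established YAP targets as well as restraints on YAP, so 30-base stretches around their matches are shown beside those of Ccn1 and Ankrd1, which encode a secreted matricellular protein and a cardiac ankyrin-repeat protein and are standard readouts of YAP activity. The matches begin at position -65 in Amotl2 (chr9:102717727-102717756, plus strand), 5 in Lats2 (chr14:57746102-57746131, minus strand), -103 in Ccn1 (chr3:145650071-145650100, minus strand) and -210 and -123 in Ankrd1 (chr19:36120037-36120066 and chr19:36119950-36119979, minus strand). Of 13 listed YAP and TAZ target genes with such a window, 5 held the motif (38.5%), against 16.6% of all genes. Ccn1 and Ankrd1 are among those 5. Capitals mark the motif.
Amotl2: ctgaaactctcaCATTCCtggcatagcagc
Lats2: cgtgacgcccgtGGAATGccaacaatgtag
Ccn1: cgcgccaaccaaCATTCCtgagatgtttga
Ankrd1 distal: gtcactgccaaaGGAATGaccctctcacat
Ankrd1 proximal: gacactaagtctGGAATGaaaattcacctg

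The MEIS core motif TGACAG, searched together with its reverse complement CTGTCA, was found in 19.2% of all windows and in 1 of the 11 windows of the 10 genes, that of Amotl1. Its 30 bases, chr9:14615176-14615205 on the minus strand with the motif in capitals from position -193, are given because it is the one match among the 10 genes. These matches are letters in a window and were not tested as binding sites.
Amotl1: aaatggtgagtgTGACAGgaattcaaacgc

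The endocardium, the endothelium that lines the chambers, held the highest level of 6 of the 10 genes, where 24.1% of the 12404 genes tested were highest there. Among the 7 types with at least 30 cells in each technical replicate (cardiomyocytes as 1 type, epicardial cells not compared), Yap1, Wwtr1, Amotl1, Amotl2, Vgll4 and Meis2 were highest in endocardial cells, Tead1 in cardiomyocytes, Lats2 in vascular endothelium, Lats1 in smooth muscle and Meis1 in fibroblasts. A gene was called led by a type when its level there was at least 2-fold above every other compared type in both replicates, among genes with 20 counts or more in a type in each replicate. Meis2 met this rule, 1 gene of 10, while 13.9% of the 12404 genes tested did. A share of 1 in 10 is near that background.

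**Figure D1:**
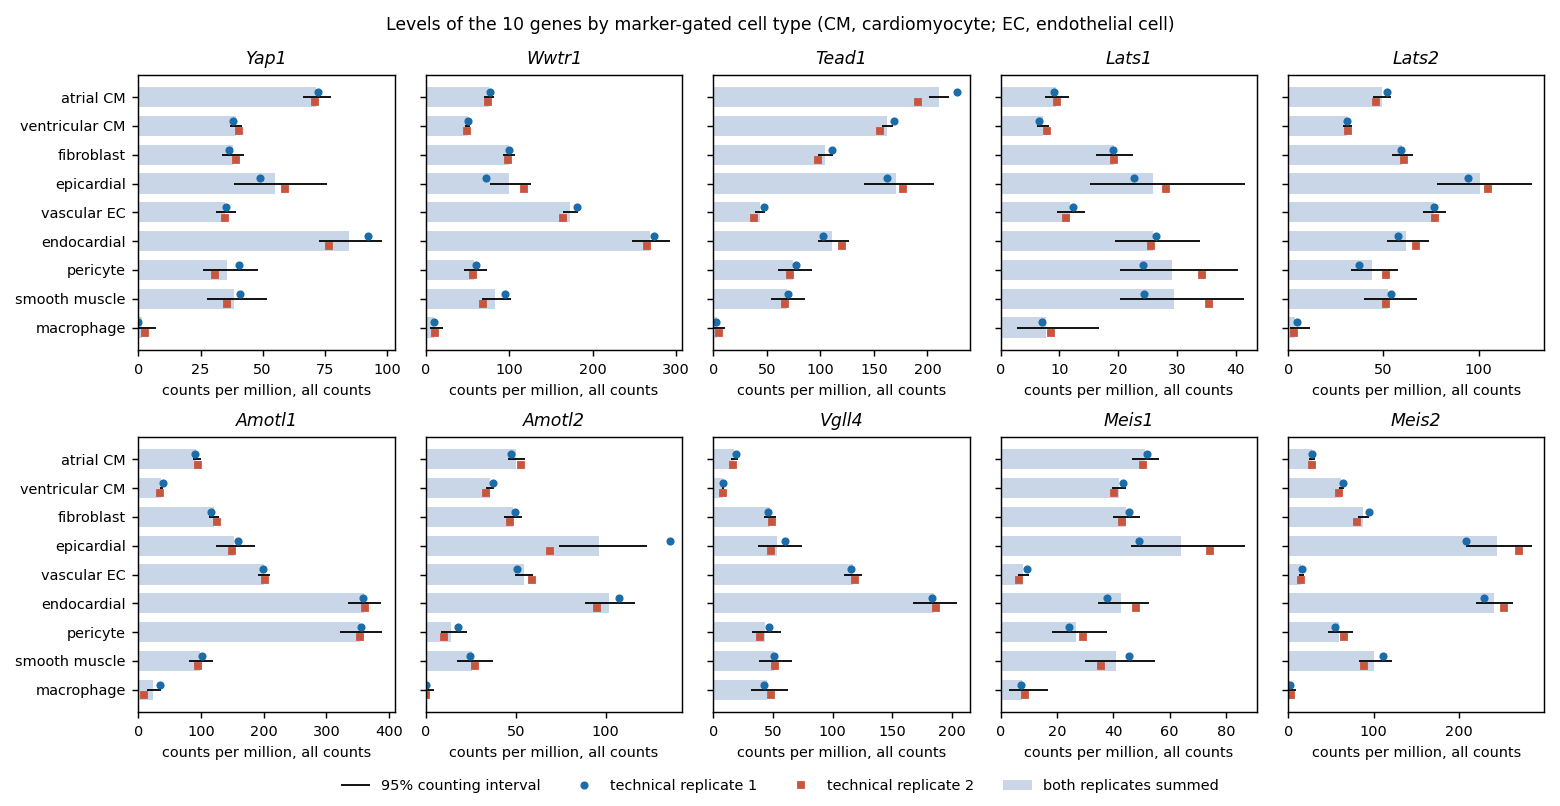
Levels of the 10 genes (CPM of all counts, horizontal axis, a separate scale for each gene) in 9 marker-gated cell types. Bars are both technical replicates summed, black lines the 95% counting intervals, circles and squares technical replicates 1 and 2. Endocardial cells have the longest or nearly the longest bar for Yap1, Wwtr1, Amotl1, Amotl2, Vgll4 and Meis2, and atrial cardiomyocytes for Tead1.

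Yap1 encodes the coactivator YAP. Its level in endocardial cells was 92.5 and 76.7 CPM in technical replicates 1 and 2, in atrial cardiomyocytes 72.2 and 71.1 CPM, and in ventricular cardiomyocytes 38.0 and 40.5 CPM. Fibroblasts (36.7 and 39.4 CPM), vascular endothelial cells (35.1 and 34.8 CPM), pericytes (40.4 and 30.9 CPM) and smooth muscle cells (40.8 and 35.5 CPM) lay with the ventricular cardiomyocytes. Macrophages held 1 Yap1 count in all, or 1.29 CPM. Endocardial cells and atrial cardiomyocytes were at the top and did not separate, with a ratio of 1.18 (0.995 to 1.40). From epicardial cells at 55.0 CPM down to vascular endothelium, no neighbours in the order were separated by more than counting error. Without mitochondrial and globin counts, cardiomyocytes moved up: atrial cells were at 92.1 CPM, endocardial cells at 90.0 CPM and ventricular cells at 64.8 CPM, against 40.2 CPM in fibroblasts.

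Wwtr1 encodes TAZ, the paralogue of YAP. It had a different order, with 274 and 265 CPM in endocardial cells, 181 and 164 CPM in vascular endothelial cells, and 100.1 and 98.4 CPM in fibroblasts. Ventricular cardiomyocytes, at 50.2 and 49.8 CPM, were not separated from pericytes, at 59.8 and 56.6 CPM, and macrophages were at 9.40 and 11.3 CPM. Without mitochondrial and globin counts the ventricular level was the higher of the pair, 82.6 CPM against 60.8 CPM in pericytes. The leading types were separated, endocardial over vascular endothelial cells by 1.56-fold (1.41 to 1.72) and vascular endothelial cells over fibroblasts by 1.74-fold (1.60 to 1.90). As a share of cells, each thinned to 2000 counts to equal depth, Wwtr1 was detected in 44.2% of endocardial cells (37.8% to 50.7%), 26.7% of vascular endothelial cells, 11.3% of cardiomyocytes and 1.46% of macrophages. Before thinning these shares were 77.0%, 70.4%, 28.4% and 3.55%, at median depths of 6910, 9427, 6121 and 4934 counts.

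Tead1 encodes the TEAD factor best known in muscle. It was highest in atrial cardiomyocytes, at 228 and 192 CPM, and stood at 169 and 156 CPM in ventricular cells. Epicardial cells (162 and 177 CPM) lay between the chambers, endocardial cells (103 and 120.0 CPM) and fibroblasts (111 and 97.6 CPM) came next, and vascular endothelial cells were low at 47.6 and 38.2 CPM. Cardiomyocytes as a whole exceeded endocardial cells by 1.57-fold (1.38 to 1.80), and by 2.29-fold without mitochondrial and globin counts. Among cells thinned to 2000 counts, 29.2% of cardiomyocytes (28.0% to 30.4%) had a Tead1 count, against 17.0% of fibroblasts, 6.71% of vascular endothelial cells and 2.19% of macrophages.

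The TEAD family differed in composition between types. Tead1 made up 82.7% of all Tead1 to Tead4 counts in ventricular cardiomyocytes (81.7% to 83.8%), 66.2% in atrial cardiomyocytes, 45.5% in endocardial cells, 43.5% in fibroblasts and 28.2% in vascular endothelial cells. Tead2 had the larger part where Tead1 was low, with 60.8% in vascular endothelial cells and 61.7% in pericytes. Tead4 reached 10.7% in vascular endothelial cells and 3.74% in endocardial cells, and Tead3 reached 14.4% in smooth muscle cells. The Tead1 share was close between technical replicates at both ends, with 83.4% and 82.0% in ventricular cells and 29.8% and 26.2% in vascular endothelial cells.

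Lats1 and Lats2 encode the kinases that switch YAP and TAZ off. Lats1 was sparse, with 733 counts over all barcodes, and its levels were 29.5 CPM in smooth muscle cells, 29.1 CPM in pericytes, 26.0 CPM in endocardial cells, 19.2 CPM in fibroblasts, 11.7 CPM in vascular endothelial cells and 7.65 CPM in cardiomyocytes. From smooth muscle down to fibroblasts no neighbours in the order were separated. Cardiomyocytes, at 7.04 and 8.32 CPM in the replicates, were below fibroblasts, at 19.2 and 19.3 CPM. On this gene the cardiomyocyte level did not exceed that of macrophages, at 7.71 CPM (2.83 to 16.8), and without mitochondrial and globin counts they stood at 11.8 and 8.03 CPM. Lats2 was highest in epicardial cells (94.3 and 105 CPM) and vascular endothelial cells (76.4 and 77.1 CPM). It was 31.1 CPM in ventricular cardiomyocytes, below the 44.1 CPM of pericytes, and 3.86 CPM in macrophages, but without mitochondrial and globin counts ventricular cells were above pericytes, at 51.4 and 46.0 CPM. Vascular endothelial cells exceeded endocardial cells in Lats2 by 1.23-fold, with 1.33 and 1.15 in the replicates.

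Angiomotins are scaffolds that bind YAP and actin at junctions. Amotl1 stood at 359 and 362 CPM in endocardial cells and at 355 and 353 CPM in pericytes, the mural cells of capillaries, a ratio of 1.02 (0.901 to 1.15). Vascular endothelial cells followed at 199 and 202 CPM, and smooth muscle cells, the other mural type, were at 101 and 94.7 CPM. Ventricular cardiomyocytes were at 38.7 and 34.3 CPM. Amotl2 was high in the endocardium as well, at 108 and 95.4 CPM, but was at 17.8 and 10.3 CPM in pericytes. Fibroblasts were above ventricular cardiomyocytes, at 48.2 and 35.7 CPM, and below them without mitochondrial and globin counts, at 51.0 and 58.9 CPM. No Amotl2 count was seen in the 141 macrophages, which allows up to 3.86 CPM (3 counts). Epicardial replicates, of 22 and 43 cells, were far apart for Amotl2, at 136 and 69.3 CPM. Among thinned cells Amotl1 was detected in 50.4% of endocardial cells, 48.1% of pericytes, 9.42% of cardiomyocytes and 2.19% of macrophages.

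Vgll4 encodes a vestigial-like protein that blocks YAP from TEAD. Its order was endothelial first: 183 and 187 CPM in endocardial cells and 115 and 119 CPM in vascular endothelial cells. Fibroblasts, smooth muscle cells, pericytes, epicardial cells and macrophages formed a group between 43.2 and 53.4 CPM in which no neighbours were separated. Atrial cardiomyocytes were at 18.8 and 16.5 CPM and ventricular cardiomyocytes lowest, at 8.22 and 7.88 CPM. Endocardial cells exceeded vascular endothelial cells by 1.58-fold (1.40 to 1.78). Vgll4 was the member with a macrophage level of the same size as in stromal cells, 45.0 CPM (31.3 to 62.6) against 47.2 CPM in fibroblasts. In macrophages the other 9 genes stood at 23.1 CPM or less.

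Meis1 and Meis2 encode TALE homeodomain factors that bind DNA with PBX partners. Meis1 was even across much of the heart, with 52.1 and 50.4 CPM in atrial cardiomyocytes, 45.5 and 43.2 CPM in fibroblasts, 43.4 and 40.1 CPM in ventricular cardiomyocytes, and 37.7 and 48.2 CPM in endocardial cells. It was lower in vascular endothelial cells, at 9.29 and 6.49 CPM, a level like that of macrophages at 7.71 CPM. Fibroblasts over cardiomyocytes gave 1.00 (0.890 to 1.13). Without mitochondrial and globin counts this ratio was 0.687, with cardiomyocytes at 68.4 CPM and fibroblasts at 47.0 CPM.

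Meis2 was the gene led by a type. Endocardial cells were at 229 and 252 CPM and smooth muscle cells, the next compared type, at 111 and 88.7 CPM, a ratio of 2.38 (1.94 to 2.95), with 2.07 and 2.84 in the replicates. Epicardial cells, which were too few to be compared under the rule, matched the endocardium at 207 and 269 CPM, and with them included no type led Meis2. Fibroblasts were at 94.4 and 80.7 CPM, ventricular cardiomyocytes at 64.6 and 59.7 CPM, atrial cardiomyocytes at 27.9 and 27.8 CPM and vascular endothelial cells at 15.9 and 14.8 CPM. Without mitochondrial and globin counts ventricular cardiomyocytes were above fibroblasts, at 103 and 93.0 CPM. Both kinds of endothelium stood near opposite ends of the order for Meis2, macrophages apart. Among thinned cells 35.0% of endocardial cells (29.0% to 41.4%), 2.83% of vascular endothelial cells and 0.730% of macrophages had a Meis2 count.

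The balance within each pair of paralogues shifted between types in a way that does not depend on the scaling, since both genes of a pair share the total. Yap1 gave 48.6% of Yap1 and Wwtr1 counts in atrial cardiomyocytes (45.8% to 51.3%), 43.9% in ventricular cardiomyocytes, 27.6% in fibroblasts, 23.9% in endocardial cells and 16.8% in vascular endothelial cells (15.1% to 18.7%). The replicates differed by under 3 percentage points in each of these types (16.3% and 17.5% in vascular endothelium). Lats1 gave 17.7% of Lats1 and Lats2 counts in cardiomyocytes, 13.3% in vascular endothelium and 39.8% in pericytes (29.5% to 50.8%). Amotl1 gave 96.2% of Amotl1 and Amotl2 counts in pericytes (93.9% to 97.7%), 79.1% in smooth muscle cells, 78.0% in endocardial cells and 50.7% in ventricular cardiomyocytes.

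For the MEIS pair the chambers differed. Meis1 gave 64.8% of Meis1 and Meis2 counts in atrial cardiomyocytes (61.1% to 68.3%, with 65.1% and 64.5% in the replicates). In ventricular cardiomyocytes it gave 40.2% (38.3% to 42.0%, with 40.2% in each replicate). The endocardium was lowest at 15.1%, below epicardial cells at 20.8% and vascular endothelium at 34.2%. The atrium was the place of those described, macrophages with their 8 counts left out, where Meis1 held the larger part.

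**Figure D2:**
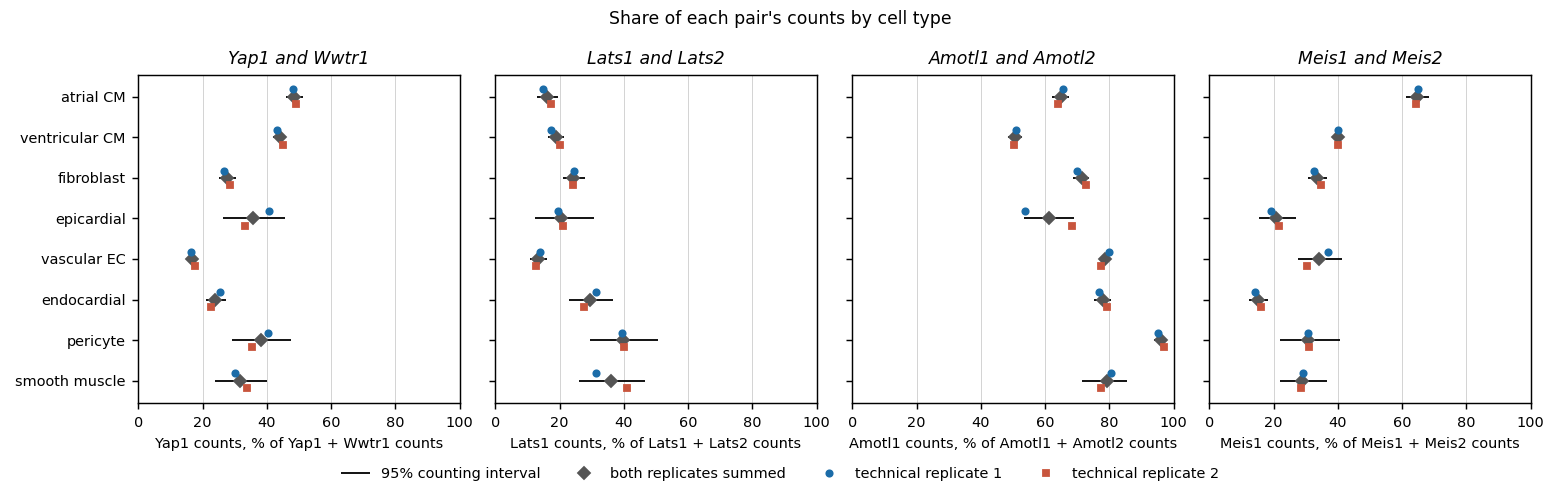
Share of the first gene in the summed counts of each paralogue pair (percent, horizontal axis) in 8 cell types. Diamonds are both technical replicates summed, with 95% counting intervals as lines, and circles and squares the 2 replicates. The Yap1 share falls from 48.6% in atrial cardiomyocytes to 16.8% in vascular endothelial cells, and the Meis1 share from 64.8% in atrial cardiomyocytes to 15.1% in endocardial cells.

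The other pathway genes came from 6 lists of 67 genes in all, with Ptpn14 on 2 of them. Of the Hippo kinases and adaptors, 3 of 20 tested were led by a type under the same rule, near the 13.9% of all genes: Ptpn14, a phosphatase that binds YAP, in endocardial cells (208 CPM, 7.77-fold over the next type), Amot, the third angiomotin, in endocardial cells (35.2 CPM, 3.52-fold) and Ajuba, a LIM-domain inhibitor of LATS, in pericytes (122 CPM, 3.43-fold). Of the YAP and TAZ targets, 4 of 19 were led by a type, beside the same 13.9%. Ankrd1 was led by cardiomyocytes (804 CPM, 10.7-fold), Ccn2, a matricellular growth factor, by smooth muscle cells (317 CPM, 3.94-fold), Fjx1 by smooth muscle cells (75.9 CPM, 2.17-fold), and Ptpn14 is on this list too. None of the 4 tested TEAD and vestigial-like relatives, 8 MEIS relatives and partners and 1 CDK inhibitor gene was led by a type.

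Profiles over the 9 types were compared by Pearson r of log2(CPM + 5) among 11046 genes with at least 200 counts, as a description over types that share libraries and scaling. The nearest profiles were those of Zfp638, Usp45 and Huwe1 for Yap1 (r of 0.990, 0.972 and 0.971), Taf5, Bcorl1 and Tspan9 for Wwtr1 (0.988, 0.975 and 0.967), and Trim35, Arhgap35 and Ghr for Tead1 (0.974, 0.959 and 0.952). Lats1 was nearest to Wrnip1, Dnajc10 and Ccdc80 (0.969, 0.968 and 0.966) and Lats2 to Timp3, Lrrc28 and Ppfia1 (0.983, 0.978 and 0.971). For Amotl1 they were B230219D22Rik, Cwf19l2 and Zcchc14 (0.975, 0.970 and 0.970), for Amotl2 Zc3h7b, Trove2 and Nfib (0.975, 0.973 and 0.967), and for Vgll4 Taok2, Fam114a2 and Rbm39 (0.987, 0.978 and 0.977). Meis1 was nearest to Pygo1, Bmpr1a and Dixdc1 (0.974, 0.973 and 0.964) and Meis2 to Cpe, Zfp316 and Pcgf2 (0.954, 0.948 and 0.942). Among the 10 genes, the closest pair was Yap1 with Tead1 (0.916) and the most distant Vgll4 with Meis1 (-0.277). The 9 types include macrophages, where Yap1 had 1 count and Tead1 had 3. The part of such near-empty macrophage values in these r values was not tested.

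Within the cardiomyocytes, atrial and ventricular cells were compared on the 10 genes. A gene was called when it differed at least 1.5-fold the same way in both technical replicates, with at least 20 counts in each. On all counts, 3 of 10 genes were higher in atrial cells (Yap1, Amotl1 and Vgll4) and 1 was lower (Meis2), against 22.3% higher and 3.83% lower of the 11309 genes tested. Because ventricular cells carried more mitochondrial counts, the median gene was 1.32-fold higher in atrial cells on all counts and 1.02-fold without mitochondrial and globin counts. The median of the 10 genes was 1.46 and 1.14 on these scales.

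Amotl1 had the highest ratio, with 90.7 and 94.6 CPM in atrial and 38.7 and 34.3 CPM in ventricular cells in the replicates, or 2.53-fold (2.30 to 2.78), and 1.97-fold without mitochondrial and globin counts. Vgll4 followed at 2.19-fold (1.77 to 2.71) and 1.70-fold. Yap1 was 1.83-fold higher in atrial cells (1.65 to 2.02), but 1.42-fold without mitochondrial and globin counts, where it was no longer called. Lats2 (1.59), Wwtr1 (1.52), Amotl2 (1.41), Lats1 (1.31), Tead1 (1.29) and Meis1 (1.22) missed the rule in at least 1 replicate, and on the second scale they were between 0.953 for Meis1 and 1.23 for Lats2. Meis2 went the other way, at 0.447 (0.389 to 0.511), with 27.9 and 27.8 CPM in atrial and 64.6 and 59.7 CPM in ventricular cells, and at 0.348 on the second scale. Among cells with under 20% mitochondrial counts, an alternative chosen after the data were seen, Yap1 and Vgll4 were not called, and Amotl1 (2.76), Lats2 (2.42), Amotl2 (2.29), Tead1 (2.11) and Meis2 (0.414) were. Atrial and ventricular replicates did not overlap for any of the 10 genes on all counts, nor for 80.9% of all genes tested. Of 15 YAP and TAZ targets tested, 8 were higher and 1 lower in atrial cells, against 22.3% and 3.83% of all genes. Of these 8, Nt5e (1.45) and Dock5 (1.20) were under 1.5-fold on the second scale. The median ratio of the targets was 1.54 (1.20 on the second scale, where all genes stood at 1.02). The most abundant of them, Ankrd1, was 3.78-fold higher in atrial cells and Tead2 3.33-fold, at 2.94-fold and 2.59-fold on the second scale.

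**Figure D3:**
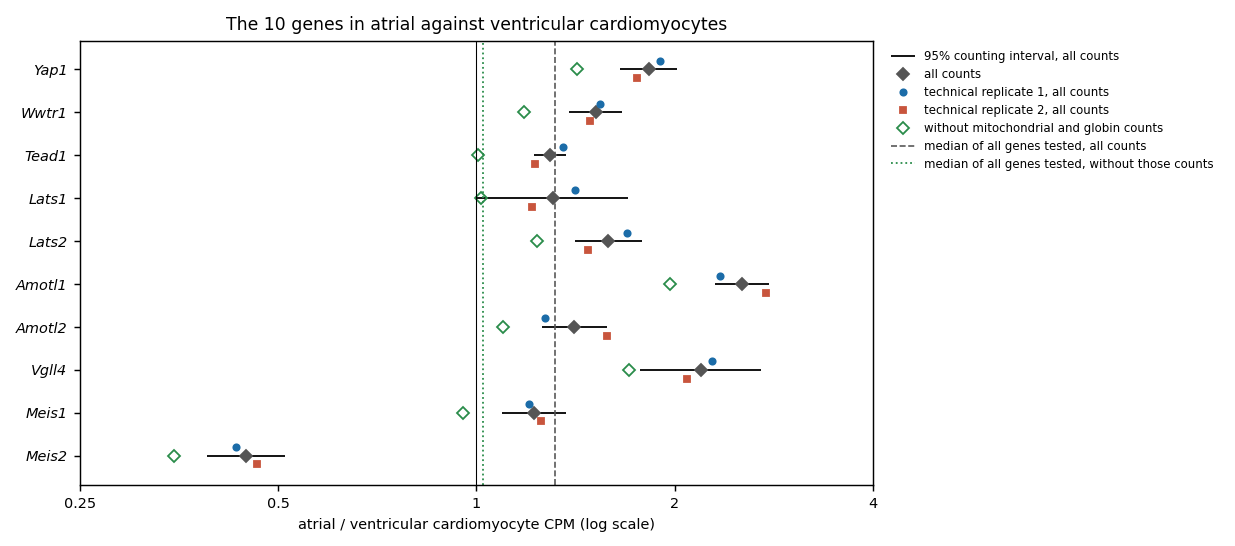
Ratio of atrial to ventricular cardiomyocyte CPM (logarithmic axis) for the 10 genes on all counts (filled diamonds with 95% counting intervals, circles and squares for technical replicates) and without mitochondrial and globin counts (open diamonds). Dashed and dotted lines mark the median of all genes tested on the 2 scales, 1.32 and 1.02; Amotl1 at 2.53 and Meis2 at 0.447 lie farthest from them.

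The genes were next compared between cycling and non-cycling cardiomyocytes. Cycling cells had at least 3 summed counts of the proliferation markers Top2a, Mki67, Cenpf and Hmmr, and non-cycling cells had 0. There were 414 cycling cardiomyocytes (226 and 188 in the replicates) and 4596 non-cycling ones. None of the 10 genes differed by 1.5-fold in both replicates, while 14.3% of the 11174 genes tested were higher and 5.11% lower in cycling cells. The ratio of cycling to non-cycling level was above 1 for 9 of the 10 genes, as it was for 62.6% of all genes tested. Its median was 1.21 over the 10 genes and 1.11 over all genes, or 1.13 and 1.04 without mitochondrial and globin counts.

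Yap1 had the highest ratio, with 60.8 and 65.5 CPM in cycling and 46.2 and 46.9 CPM in non-cycling cardiomyocytes, or 1.36 (1.17 to 1.56). Tead1, the partner of YAP, was at 227 and 198 CPM against 176 and 160 CPM, a ratio of 1.27 (1.17 to 1.37). For Wwtr1, cycling cells had 73.6 and 63.8 CPM and non-cycling cells 54.5 and 54.8 CPM, a ratio of 1.26 (1.10 to 1.44). Amotl2 gave 1.23 (1.04 to 1.45), Meis1 1.23 (1.05 to 1.43), Lats1 1.20 (0.799 to 1.74), Vgll4 1.16 (0.821 to 1.60), Meis2 1.13 (0.975 to 1.30), Amotl1 1.10 (0.945 to 1.28) and Lats2 0.969 (0.798 to 1.17). These ratios and intervals are on all counts. Without mitochondrial and globin counts the 10 ratios ran from 0.905 for Lats2 to 1.27 for Yap1, with Tead1 and Wwtr1 at 1.18 and Amotl2 and Meis1 at 1.15. The replicates of Meis1 were apart, with 62.4 and 45.2 CPM in cycling against 44.4 and 43.6 CPM in non-cycling cells, or 1.40 and 1.04. Cycling and non-cycling replicates did not overlap for 8 of the 10 genes, Lats2 and Vgll4 being the exceptions, nor for 67.3% of all genes tested. Counts behind these ratios ranged from 32 for Lats1 to 767 for Tead1 in the cycling cells.

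Along the marker score, 7 of the 10 genes were highest in the cells with the highest score, all but Wwtr1, Lats2 and Vgll4. Of these 7, Lats1 rested on 20 counts there. Without mitochondrial and globin counts it was at 12.8 CPM there and 13.3 CPM in cells with a score of 3 to 9. Median depth rose from 5922 to 9356 counts along the score. The share of all genes highest at the top score was not computed. Yap1 was at 46.5 CPM in cells with a score of 0, 37.7 CPM at 1 to 2, 52.9 CPM at 3 to 9 and 69.4 CPM (58.9 to 81.3) in the 223 cells with a score of 10 or more. Tead1 went through 168, 188, 183 and 232 CPM over the same steps. Lats2 stood at 35.8, 34.4, 41.3 and 30.7 CPM. Its counting intervals all overlapped, as did those of Lats1, Amotl1, Amotl2 and Vgll4. Meis1 was at 44.1, 35.9, 51.4 and 55.9 CPM and Meis2 at 53.9, 42.7, 55.8 and 64.0 CPM. For both genes the intervals at a score of 0 and at 10 or more overlapped. Meis1 was at 66.9 and 45.3 CPM in the replicates at the top score, against 44.4 and 43.6 CPM at 0. Without mitochondrial and globin counts it was at 79.2 CPM at the top and 78.4 CPM at 3 to 9.

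Depth and composition moved with the cycling call. Cycling cardiomyocytes had a median of 8218 counts against 5922, a median mitochondrial share of 33.1% against 36.9%, and a mean of 183 cardiomyocyte marker counts per 10000 against 257. The marker means of fibroblasts were 1.17 and 1.56 per 10000 and of endothelial cells 0.874 and 0.713. The part of depth and composition in these ratios was not tested. Against 866 non-cycling cells drawn from 10 depth bins in the proportions of the cycling cells (median 8218 counts in both), the 10 ratios ran from 1.08 to 1.42. With each cell thinned to 2000 counts, 224 cells still scored as cycling and 4855 scored as non-cycling. Yap1 was then at 2.17 (1.54 to 2.98) and Tead1 at 1.53 (1.26 to 1.85), and these 2 genes met the rule. The share of all genes that met it after thinning was not computed. In the same thinned cells 7 of the 10 ratios were above 1, Wwtr1 was at 1.51 (1.05 to 2.11), and Amotl2 (0.838), Vgll4 (0.413, 0.0493 to 1.53) and Lats1 (0.285, 0.00713 to 1.64) were below 1. Among cells with under 20% mitochondrial counts (85 cycling and 842 non-cycling), Yap1 was at 0.945 (0.658 to 1.32) and Tead1 at 1.35 (1.12 to 1.63), and 4 of the 10 ratios were above 1. Shares of thinned cells were taken with cycling called before thinning, in 411 cycling and 4534 non-cycling cardiomyocytes. Yap1 was detected in 12.2% of these cycling cells (9.17% to 15.7%) and 8.45% of the non-cycling cells. In technical replicates 1 and 2 it was in 9.33% and 15.6% of cycling and 8.80% and 8.02% of non-cycling cells. Tead1 was detected in 36.7% of cycling and 28.5% of non-cycling cells, and both genes in 2.19% of macrophages or less.

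**Figure D4:**
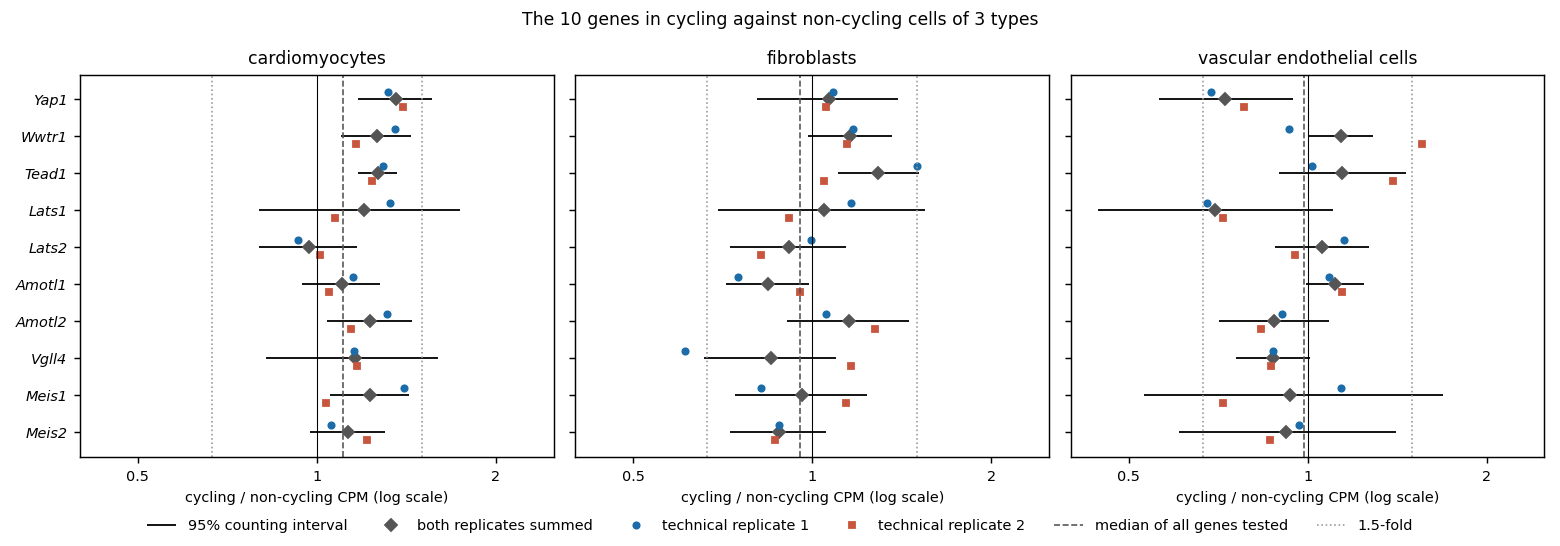
Ratio of cycling to non-cycling CPM (logarithmic axis) for the 10 genes in cardiomyocytes, fibroblasts and vascular endothelial cells. Diamonds are both technical replicates summed with 95% counting intervals, circles and squares the replicates, dashed lines the median of all genes tested and dotted lines 1.5-fold. In cardiomyocytes 9 diamonds lie right of 1, in fibroblasts 5 and in vascular endothelial cells 4, and no gene passes 1.5-fold in both replicates.

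In the chambers taken alone, ventricular cells gave Yap1 1.47 (1.23 to 1.76), Wwtr1 1.36 (1.15 to 1.60), Amotl1 1.35 (1.11 to 1.63) and Tead1 1.29 (1.17 to 1.41) from 310 cycling cells. Atrial cells, with 96 cycling cells, gave Yap1 1.14 (0.874 to 1.47), Wwtr1 1.11 (0.850 to 1.43), Amotl1 0.886 (0.681 to 1.14) and Tead1 1.20 (1.03 to 1.40). The chamber intervals overlapped for each of these 4 genes, and the difference between chambers was not tested.

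In other types the same marker score gave 241 cycling and 922 non-cycling fibroblasts, and 280 and 297 vascular endothelial cells. No member met the rule in either type, against 6.97% of genes higher and 5.89% lower in fibroblasts and 5.27% higher and 2.39% lower in vascular endothelium. The medians of the 10 ratios were 1.00 and 0.926, beside 0.954 and 0.987 for all genes. Tead1 and Wwtr1 were above 1 in all 3 types, Wwtr1 at 1.16 (0.982 to 1.36) in fibroblasts and 1.14 in vascular endothelium (0.931 and 1.56 in the replicates), and Tead1 at 1.29 (1.10 to 1.51) in fibroblasts and 1.14 (0.896 to 1.46) in vascular endothelium. Yap1 was at 1.07 (0.808 to 1.40) in fibroblasts and 0.728 (0.562 to 0.946) in vascular endothelium, where cycling cells had 30.7 and 31.7 CPM and non-cycling cells 44.6 and 40.6 CPM. Median depth differed most there, 15086.5 counts in cycling and 6111 in non-cycling cells, and its part in the result was not tested.

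Of 51 list genes with enough counts in cardiomyocytes, 8 were higher and 2 lower in cycling cells. Of all genes tested, 14.3% were higher and 5.11% lower, or 19.4% in either direction. Among the Hippo kinases and adaptors, 5 of 18 were higher: Rassf1, a scaffold of the MST kinases, from 10.2 to 35.6 CPM (3.48-fold, 2.81 to 4.30), Amot (2.09-fold, 0.970 to 4.13, from 53 counts in both groups), Sav1, the MST adaptor (1.68-fold, 1.39 to 2.01), Map4k4 (1.62-fold, 1.47 to 1.78) and Stk3, which encodes MST2 (1.55-fold, 1.21 to 1.97). The list's most abundant member in cardiomyocytes, Taok1, was at 1.20 (1.09 to 1.33). The list's median ratio was 1.26, against 1.11 for all genes. None of 15 YAP and TAZ targets met the rule: their median was 1.11, Ankrd1 was at 0.878 (0.842 to 0.914), Ccn1 at 1.19, with 1.30 and 1.07 in the replicates, and Ccn2 at 1.06 (0.930 to 1.21). Of the other TEAD genes, Tead2 was at 0.868 (0.723 to 1.04) and Tead3 at 0.742 (0.444 to 1.17).

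Among 7 MEIS relatives and partners, Pbx3 was 2.09-fold higher (1.73 to 2.52) and Pknox1, also called PREP1, 1.97-fold higher (1.46 to 2.62), whereas Meis3 was lower at 0.371 (0.134 to 0.830) on 6 counts in cycling cells. Cdkn1a, which encodes the CDK inhibitor p21 and has been described as a MEIS1 target, was at 57.8 CPM in cycling and 17.8 CPM in non-cycling cardiomyocytes, 3.25-fold higher (2.76 to 3.83). Cdkn2a and Cdkn2b had too few counts. In the dystrophin complex, which tethers YAP in cardiomyocytes, 1 of 9 genes met the rule: Sgca was lower at 0.417 (0.293 to 0.578), and Dag1, the most abundant, was at 1.05 (0.971 to 1.14). On counts without mitochondrial and globin genes, 7 list genes met the rule, while Sav1 (1.57), Map4k4 (1.51) and Stk3 (1.45) missed it in at least 1 replicate.

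**Figure D5:**
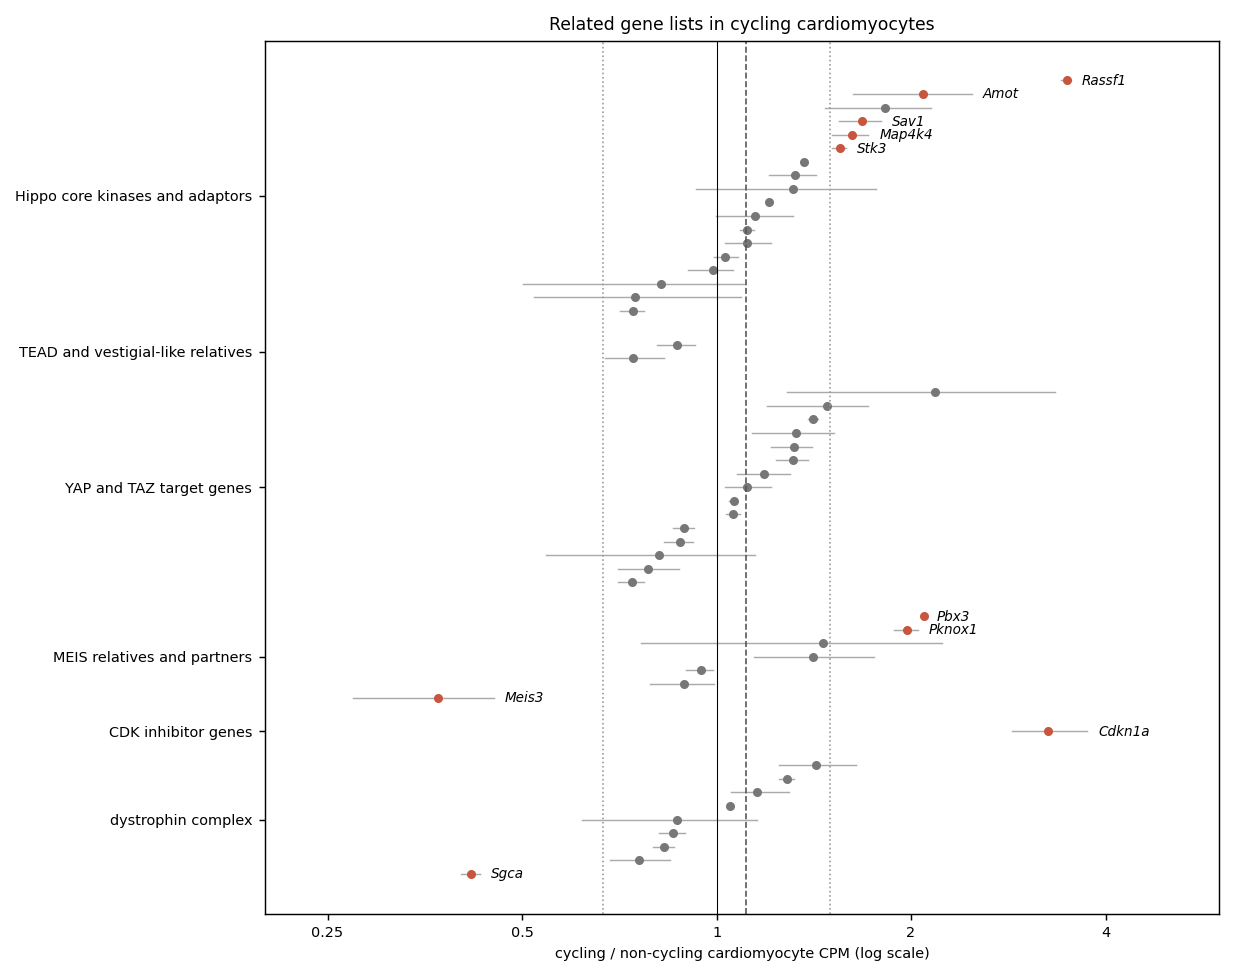
Ratio of cycling to non-cycling cardiomyocyte CPM (logarithmic axis) for the tested genes of the 6 lists, 1 row for each gene, ordered by ratio within a list. Points are both technical replicates summed, grey lines join the 2 replicates, and named red points met the 1.5-fold rule in both; the solid line is 1, the dashed line the median of all genes tested (1.11) and dotted lines 1.5-fold. Ptpn14 stands in the first and the third list.

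Cells with counts of 2 partner genes were counted after thinning. In 5425 cardiomyocytes, 466 had a Yap1 count and 615 a Wwtr1 count, and 62 had both (47.5 to 79.5), where the product of the shares gives 52.8. Yap1 and Tead1 were found together in 158 cells (134 to 185), against a product of 136, and Meis1 and Meis2 in 48 (35.4 to 63.6), against 43.7. The intervals held the product in all 5 pairs examined in cardiomyocytes, the others being Wwtr1 with Tead1 and Lats2 with Amotl2. They also held it for these pairs in atrial and in ventricular cells taken alone. At this depth the joint counts of these pairs were not separated from the product of their shares.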

How the data were processed

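Per the labels' protocols, 1 P0 whole-heart sample was run as 2 technical replicates on 10x Chromium. The listed tool is Cell Ranger 2.1.0 with the mm10 build, per the submitters' processing notes. The authors deposited 1 table of whole-number counts per gene and barcode for each replicate (34668956 and 33871582 counts in 5888 and 6047 barcodes), with no normalization recorded. Whether a count is a molecule or a read is not given in the sources used here. The second table's column names carry another library name than its label, so each table was paired with the sample it was deposited under.

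Symbols, coordinates and exons came from GENCODE vM21 (27645 of 27999 features matched), and promoters from RefSeq. Cells were gated on marker panels in counts per 10000 (cardiomyocyte 80, fibroblast 30, pericyte 30, smooth muscle 60, macrophage 20, epicardial 10, endothelial 15), with a minimum number of panel genes detected. Thresholds were set on marker counts alone. Endocardial cells had at least 8 per 10000 of the endocardial and under 50 of the vascular panel, and vascular cells the reverse. Chambers were split at an atrial marker share of 0.7 and 0.3. No gate was met by 122 cells, and 59 endothelial cells stayed unsplit. No doublet caller was run; a stricter gate without raised second panels was tried. Counts were summed per type and replicate. Intervals were exact (Poisson, Clopper-Pearson, conditional binomial for ratios) at 95%. The calling rule was tested on simulated data.

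All 10 genes are named. From the lists, those past 1.5-fold in cycling cells (up to 5 per list and direction), the most abundant in cardiomyocytes and up to 3 led by a type are named, and for each gene the 3 nearest profiles. Some list genes that this rule names are not reported here. Ccn1, Ccn2, Fjx1, Tead2 and Tead3 values, and the comparison of chambers, were added after the data were seen. The members and lists were chosen with earlier results of these data known. Sums and intervals were computed with scipy 1.17.1, numpy 2.4.6 and pandas 2.3.3 under Python 3.11.15, and figures drawn with matplotlib 3.10.9.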

Additional observations from a re-analysis of the deposited data

Results flagged for a closer look

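In 10 cases both technical replicates of a gene's cycling to non-cycling ratio lay on one side of 1 in a cell type and on the other side in a second type. The share of all genes with such a change of side was not computed. The technical replicates come from 1 biological sample, and none of these differences between types was tested. Against cardiomyocytes, where the ratios were 1.10 and 1.13, fibroblasts gave 0.844 for Amotl1 and 0.879 for Meis2. Vascular endothelial cells gave 0.728 for Yap1, 0.697 for Lats1, 0.878 for Amotl2, 0.873 for Vgll4 and 0.919 for Meis2, where cardiomyocytes gave 1.36, 1.20, 1.23, 1.16 and 1.13. Of these, Yap1 is the gene for which the intervals of the 2 types did not overlap (0.562 to 0.946 and 1.17 to 1.56). Atrial cardiomyocytes gave 0.623 for Lats1 on 5 counts in cycling cells, 1.22 for Lats2 and 0.886 for Amotl1, where ventricular cardiomyocytes gave 1.48, 0.845 and 1.35.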

How the results depend on the processing

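With 1 biological sample, every interval covers counting error only, and no paired analysis was possible because the result comes from no test. The count of genes led by a type, 1, was 5 with a fold of 1.5 between types (Yap1, Wwtr1, Amotl2, Vgll4 and Meis2, all in endocardial cells), 1 to 2 with a technical replicate left out (Amotl2 joined without replicate 2), and 0 with epicardial cells compared, an alternative added after the data were seen. The count of members changed in cycling cardiomyocytes, 0, was 2 after thinning to 2000 counts, where the share of all genes was not computed. It was 0 in the other alternatives run. The count of list genes changed there, 10, was 16 to 18 with a replicate left out, where the rule asks for 1 replicate in place of 2, 6 with the stricter gate, 4 in atrial cardiomyocytes and 5 at a fold of 2. The count of members called between chambers, 4, ran from 3 to 6. In the comparison of chambers, no called ratio turned direction, and that of Meis1, which was not called, went from 1.22 to 0.953 without mitochondrial and globin counts. In the cycling comparison, where no member was called, 8 ratios crossed 1 under at least 1 alternative: Yap1 (lowest 0.945), Amotl1 (0.886), Amotl2 (0.838), Lats1 (0.285), Vgll4 (0.413), Meis1 (0.880) and Meis2 (0.678) went below it and Lats2 (highest 1.22) above it, whereas Tead1 and Wwtr1 stayed above 1.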
